A study of Populus tremula x Populus tremuloides with 6 samples.

Results

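The most abundant transcripts of sun-exposed poplar leaves were described as 197 of the 37327 loci in the deposited count files. The leaves came from 3 MYB134 RNAi and 3 wild-type (WT) saplings of a hybrid poplar, Populus tremula x Populus tremuloides. After tissue culture, 1 month under mist and 2 months under glass, all 6 plants stood outdoors in natural sunlight for 2 weeks. The RNAi plants were made by transforming leaves of clone INRA 353-38 with a hairpin construct, in which 169 bp of MYB134 coding sequence in both orientations was driven by a ubiquitin promoter. All 3 RNAi titles share the number 24, and the labels do not say whether the plants come from 1 transformation event. The labels do not state the plants' age beyond these growth periods.

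Loci were ranked by their mean CPM (counts of a locus scaled to a library of 1000000 assigned counts) over the 3 WT libraries. The top 200 were taken. A locus was left out if all 3 RNAi values lay under the lowest WT value divided by 1.5, or all lay above 1.5 times the highest WT value. This left out 3 loci. The WT level and the difference between genotypes were therefore used to choose the loci, and both are given below as a description. All 197 members, and all 3 loci left out, passed the filter on low counts that 24853 loci passed. A CPM is a share of reads. Locus lengths were not used here, so a high CPM can come from many transcripts or from a long one, and the order of loci is an order of read shares.

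In leaves, a large part of the messenger RNA is known to come from a limited set of nuclear genes for light harvesting and carbon fixation, such as those for the small subunit of Rubisco and the chlorophyll a/b-binding proteins. Such transcripts therefore take much of the sequencing depth, and a swing in one of them changes the share left to all other transcripts. MYB134 is known in poplar as an activator of the synthesis of proanthocyanidins, the condensed tannins. The files name loci by number only, so none of the 197 loci is matched here to a gene, and the leaf label was not checked against marker genes. In leaf RNA, fewer cells of a type and less RNA per cell cannot be told apart.

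Assigned counts lay between 46206808 and 95496664 in the RNAi libraries and between 24001320 and 37628544 in the WT libraries. RNAi replicate 3 stood apart from the other libraries. Over the members, its Pearson correlation of log2 CPM with the other 5 libraries lay between 0.538 and 0.687, and all other pairs of libraries lay between 0.947 and 0.991. These correlations are across 197 loci, which are not independent replicates. Counts and summaries that it moved are followed by their value without it.

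The 197 loci held about 2 in 5 of all assigned reads in both genotypes. They took 44.8%, 39.5% and 37.9% of the assigned counts in RNAi replicates 1, 2 and 3, and 42.8%, 39.6% and 44.0% in WT replicates 1, 2 and 3. The lowest shares were in RNAi replicate 3 and RNAi replicate 2, and the ranges of the genotypes overlapped. The mean was 40.7% ± 3.59 (SD, n = 3) in RNAi leaves and 42.2% ± 2.27 (SD, n = 3) in WT leaves. The difference of -1.44 percentage points (RNAi minus WT) was smaller than the spread between plants of either genotype. Without RNAi replicate 3 it was -0.03 percentage points. Without RNAi replicate 1 it was -3.46 and without WT replicate 2 it was -2.71 percentage points.

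A single locus carried much of the variation in this share. XLOC_037099, the first member, took 8.58%, 4.03% and 3.4% of the counts in RNAi replicates 1 to 3, and 7.2%, 2.6% and 8.10% in WT replicates 1 to 3. It was high in RNAi replicate 1 and WT replicates 1 and 3, and low in the other 3 libraries, so each genotype held high and low plants. The coefficient of variation (CV) of its CPM was 53.0% in RNAi and 49.4% in WT leaves. Its highest value was 3.30 times its lowest, and it ranked first in every library but WT replicate 2, where it ranked second. Without it, the other members took 36.2%, 35.5% and 34.5% of the counts in RNAi libraries and 35.6%, 37.0% and 35.9% in WT libraries. The 148 members at WT ranks 51 to 200 were close to constant as a sum. They took 13.7%, 13.8% and 13.7% of the counts in the RNAi libraries and 13.5%, 13.3% and 13.3% in the WT libraries. The members at ranks 2 to 10 took between 10.6% and 11.3% in RNAi and between 10.8% and 12.2% in WT libraries. Those at ranks 11 to 50 took between 10.05% and 11.2% in RNAi and between 11.3% and 11.6% in WT libraries.

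How concentrated the read pool is can be measured without the WT ranking, by ranking each library by itself. The 10 leading loci of each library took 19.9%, 14.6% and 14.8% of the counts in RNAi replicates 1 to 3 and 18.0%, 14.8% and 19.4% in WT replicates 1 to 3. The 50 leading loci took between 26.0% and 31.4% in RNAi and between 26.7% and 31.0% in WT libraries. The 200 leading loci took between 39.8% and 45.2% in RNAi and between 40.3% and 44.5% in WT libraries. RNAi replicate 1 was the most concentrated library and RNAi replicate 2 the least, so the WT values lay inside the RNAi range. In RNAi replicates 1 to 3, 310, 478 and 471 loci held 50% of the counts, and in WT replicates 1 to 3 the numbers were 360, 461 and 331.

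The effective number of loci, the exponential of the Shannon entropy of the count shares, was 2617 ± 539 (SD, n = 3) in RNAi and 2417 ± 421 (SD, n = 3) in WT leaves. It was lowest, at 1995, in RNAi replicate 1 and highest, at 2953, in RNAi replicate 2. In two-sided exact permutation tests over the 6 libraries, none of the 5 measures of concentration differed detectably between genotypes, with p between 0.7 and 0.9 and a Benjamini-Hochberg adjusted p of 0.9 for each. The smallest p that 20 arrangements allow is 0.1, so this design cannot reach 0.05. Without RNAi replicate 3 the difference (RNAi minus WT) was -0.16 instead of -0.96 percentage points for the share of the 10 leading loci, and 57.0 for the effective number of loci. Without XLOC_037099 the libraries were more alike: the share of the 10 leading loci then lay between 11.5% and 12.9% in RNAi and between 12.2% and 13.1% in WT libraries. The effective number of loci was then 3239 ± 259 (SD, n = 3) in RNAi and 3102 ± 71.4 (SD, n = 3) in WT leaves.

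**Figure D1:**
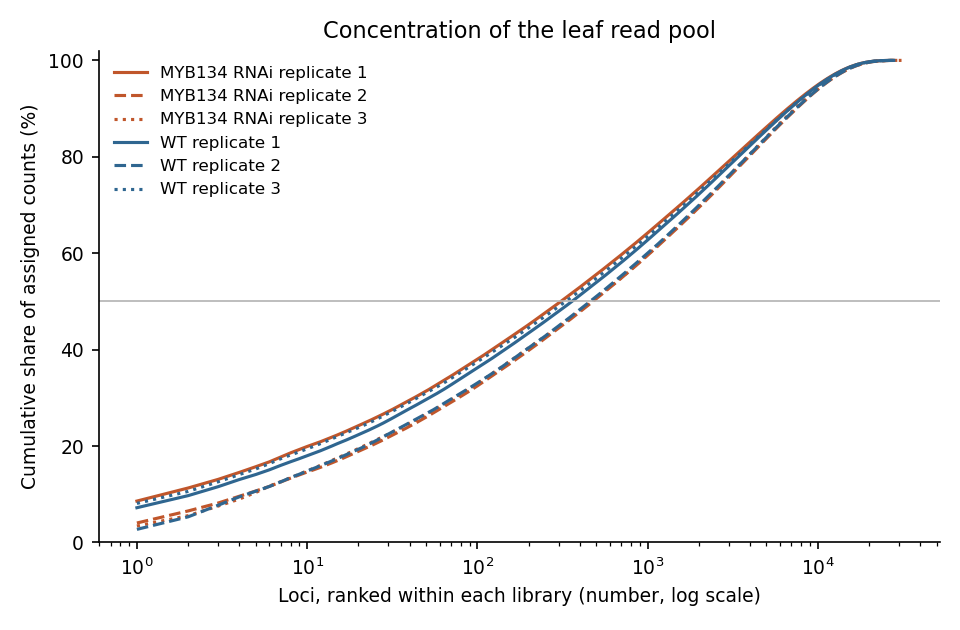
Cumulative share of assigned counts (y axis, %) against the number of loci ranked within each library (x axis, log scale), with 1 line per library, RNAi in orange and WT in blue, and a grey line at 50%. RNAi replicate 1 and WT replicates 1 and 3 form the upper curves and reach 50% at 310, 360 and 331 loci, while RNAi replicates 2 and 3 and WT replicate 2 need between 461 and 478.

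Among the first 10 members, XLOC_015338 had a wider range over the 6 libraries than the first, and all others a narrower one. XLOC_005519, the second member, took 2.71%, 2.50% and 2.16% of the counts in RNAi replicates 1 to 3 and 2.51%, 2.71% and 2.49% in WT replicates 1 to 3. Its 6 values lay within 1.26-fold of each other, and the genotypes overlapped. XLOC_029868, the third, took 1.79%, 1.64% and 1.38% in RNAi libraries and 1.85%, 2.40% and 1.99% in WT libraries, so that each RNAi value lay below each WT value. XLOC_008728 took 1.45%, 1.40% and 1.98% in RNAi libraries and 1.49%, 1.75% and 1.52% in WT libraries, with RNAi replicate 3 highest.

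XLOC_003273 varied little within a genotype, with a CV of 2.90% in RNAi and 5.72% in WT leaves, and each RNAi value lay below each WT value. XLOC_011517 took between 1.10% and 1.3% of the counts in RNAi and between 0.960% and 1.16% in WT libraries. XLOC_008747 reached 1.46% in RNAi replicate 3, and lay between 0.920% and 1.01% in the other 5 libraries. XLOC_011913 was lowest in RNAi replicate 3, at 0.611%, and lay between 0.754% and 0.889% elsewhere. XLOC_021554 had 0.696%, 0.668% and 0.776% in RNAi and 0.640%, 0.670% and 0.631% in WT libraries, the narrowest range of the first 10 members at 1.23-fold.

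The ninth member, XLOC_015338, stood apart from these. It had 6219, 5951 and 1700 CPM in RNAi replicates 1 to 3, and 6015, 6942 and 6477 CPM in WT replicates 1 to 3. Its highest value was 4.08 times its lowest, a wider range than that of the first member. The low value was found in RNAi replicate 3 alone, where it ranked 53, and RNAi replicates 1 and 2 lay within or close to the WT range.

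**Figure D2:**
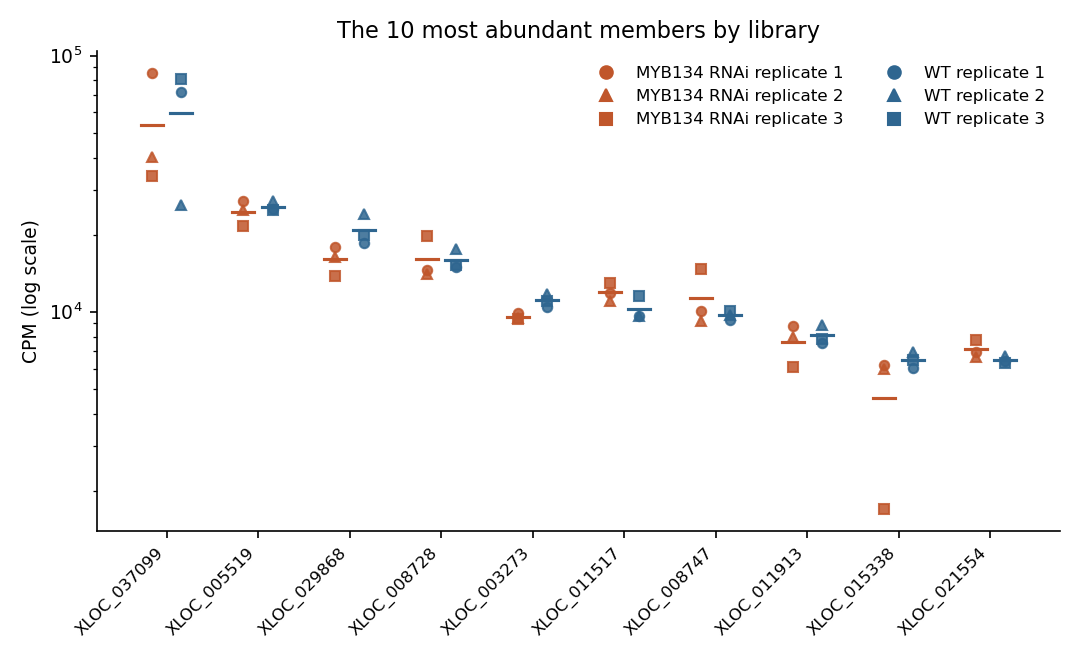
CPM (y axis, log scale) of the 10 members with the highest WT mean (x axis), with 1 point per library, RNAi in orange left of WT in blue, and a short line at each genotype's mean. XLOC_037099 spreads over 3.30-fold in both genotypes together, and XLOC_015338 has 1 low point, RNAi replicate 3 at 1700 CPM.

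The 5 steadiest members varied little between plants of 1 genotype. They were picked by the pooled within-genotype standard deviation (SD) of log2 CPM, so their low spread is a description. XLOC_035093 had 3880, 3747 and 3820 CPM in RNAi replicates 1 to 3 and 3722, 3676 and 3673 CPM in WT replicates 1 to 3. Its highest value was 1.06 times its lowest, and all 3 RNAi values lay above the WT values by a narrow margin. XLOC_022445 had 3094, 2947 and 2987 CPM in RNAi and 2850, 2946 and 2971 CPM in WT libraries, within 1.09-fold.

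XLOC_002149, at WT rank 136, was as steady at a lower level. It had 767, 741 and 703 CPM in RNAi libraries and 767, 778 and 756 CPM in WT libraries, within 1.11-fold, and the genotypes overlapped. XLOC_004167 and XLOC_010407 were steady within each genotype but sat higher in RNAi libraries, with ranges of 1.19-fold and 1.26-fold over the 6 plants. XLOC_004167 had between 1795 and 1861 CPM in RNAi and between 1564 and 1674 CPM in WT libraries. XLOC_010407 had between 667 and 715 CPM in RNAi and between 565 and 600 CPM in WT libraries.

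Over the 6 libraries of both genotypes, a larger share of the members than of all tested loci stayed within a narrow range. The rule had used these 6 values to leave out loci that differ between genotypes, so these shares are a description. All 6 libraries lay within 1.5-fold of each other at 96 of the 197 members (48.7%), where 26.9% of the 24853 tested loci did. They lay within 2-fold at 142 members (72.1%), against 56.1%. Over the 5 libraries without RNAi replicate 3, 165 members lay within 1.5-fold (83.8%), against 49.1% of tested loci, and 190 within 2-fold (96.4%), against 75.6%. No test was made over loci, which share their libraries.

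Loci at ranks 201 to 5000 had much the same share by this count as the first 200. When loci were banded by their mean over all 6 libraries, the share within 1.5-fold was 48.5% in the first 200, 48.9% at ranks 201 to 1000, 48.8% at ranks 1001 to 5000, 42.7% at ranks 5001 to 10000 and 14.3% below. Without RNAi replicate 3 these shares were 83.0%, 83.1%, 80.7%, 74.5% and 29.8%. Between RNAi replicates 1 and 2 alone the bands did differ, with a median SD of log2 CPM of 0.061 in the first 200, 0.084 at ranks 201 to 1000 and 0.127 at ranks 1001 to 5000.

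Counting error was a small part of the spread at these loci, as their counts were high. The lowest count of any member was 1792 in RNAi replicate 3 and 6799 in WT replicate 2. The median SD of log2 CPM over the members was 0.24 in RNAi and 0.12 in WT leaves, while counting alone would give a median of 0.0061 in RNAi and 0.0090 in WT libraries. Over all tested loci the median SD was 0.34 in RNAi and 0.23 in WT leaves. Counting alone would give a larger median there, 0.070 in RNAi and 0.10 in WT libraries. The part of counting error in the gap between members and all tested loci was not tested.

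The larger spread among RNAi plants rested on RNAi replicate 3. With all 3 libraries the SD was larger in RNAi than in WT leaves at 150 of the 197 members. RNAi replicates 1 and 2 alone had a median SD of 0.063, and their SD exceeded the WT SD at 48 members. That count sets 2 RNAi libraries against 3 WT libraries with WT replicate 2 among them, so it is not like for like. In WT leaves the spread rested largely on replicate 2: without it the median SD was 0.065, close to that of RNAi replicates 1 and 2. An SD above 1 on the log2 scale was found at 23 members in RNAi and at 0 in WT leaves. Between RNAi replicates 1 and 2 alone the largest SD of a member was 0.77.

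**Figure D3:**
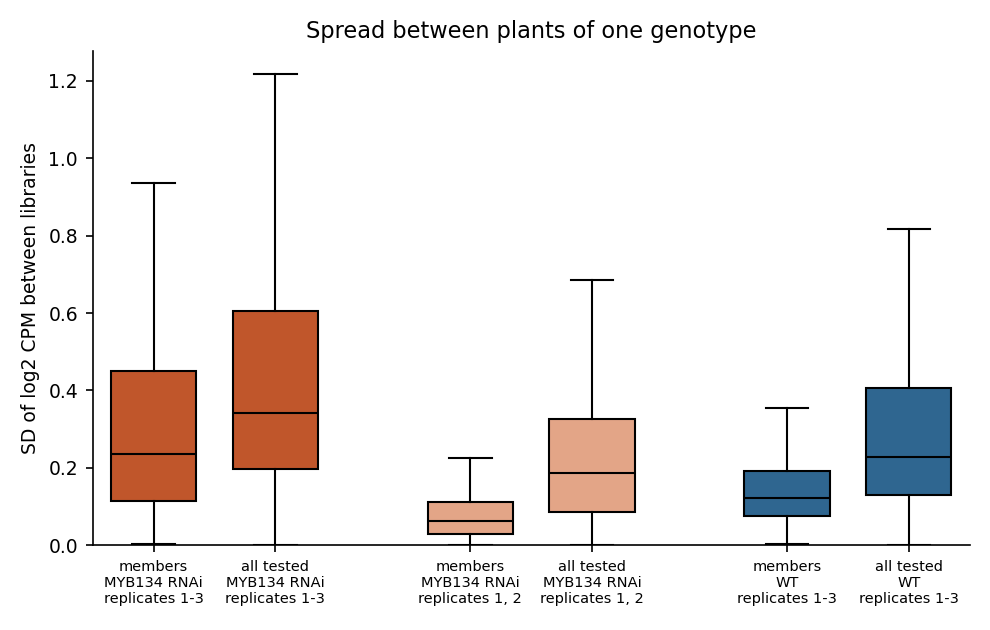
SD of log2 CPM between libraries (y axis) for the 197 members and for all tested loci, in RNAi replicates 1 to 3, in RNAi replicates 1 and 2, and in WT replicates 1 to 3; boxes span the quartiles, the line is the median and whiskers reach the furthest value within 1.5 box lengths. In each set of libraries the members' median, at 0.24, 0.063 and 0.12, lies below that of all tested loci, at 0.34, 0.19 and 0.23, where counting error is also larger.

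A block of members was very low in 1 plant. In RNAi replicate 3, 20 of the 197 members (10.2%) lay more than 4-fold below both other RNAi libraries, against 3.89% of tested loci. These 20 loci, at WT ranks 16 to 167, were set apart after their values were seen. Together they took 2.84%, 3.04% and 0.273% of the counts in RNAi replicates 1 to 3 and 2.78%, 3.88% and 2.64% in WT replicates 1 to 3. In RNAi replicates 1 and 2 their sum lay within the WT range, and in RNAi replicate 3 it lay far below all other libraries. Upwards, at a limit of 2-fold instead of 4-fold, 4 members (2.03%) lay above both other RNAi libraries in RNAi replicate 3, against 7.07% of tested loci. The members were chosen for a high WT level, which leaves out loci that are high in RNAi replicate 3 only. Both contrasts with the tested loci can therefore follow in part from the choice.

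XLOC_018116 lay furthest below in that plant. It had 754, 885 and 18.8 CPM in RNAi replicates 1 to 3 and 780, 1321 and 760 CPM in WT replicates 1 to 3. Its value in RNAi replicate 3 rested on 1792 counts and was 43.7-fold below the mean of the other RNAi libraries, and its rank there was 7611. XLOC_007999 had 1192, 1142 and 29.8 CPM in RNAi libraries and 950, 1604 and 968 CPM in WT libraries. XLOC_030392 had 702, 757 and 21.3 CPM in RNAi libraries and 510, 862 and 538 CPM in WT libraries. In these loci RNAi replicate 3 was the low library and WT replicate 2 the high one.

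XLOC_034338, XLOC_002006 and XLOC_013279 repeated this pattern at other levels. XLOC_034338 had 1049, 1068 and 33.1 CPM in RNAi libraries and 604, 1304 and 629 CPM in WT libraries. XLOC_002006 had 1766, 1911 and 63.9 CPM in RNAi libraries and 2054, 3265 and 1554 CPM in WT libraries. At XLOC_013279, RNAi replicate 3 had 30.5 CPM and WT replicate 2 had 918 CPM, and the other 4 libraries lay between 495 and 717 CPM. The most abundant locus of the block, XLOC_021378, had 4121 CPM in both RNAi replicates 1 and 2 and 292 CPM in replicate 3, and 3469, 5751 and 3467 CPM in WT replicates 1 to 3. RNAi replicates 1 and 2, and WT replicates 1 and 3, were thus close to each other at loci where the remaining plant of their genotype was far away.

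The block was not uniform. At 14 of the 20 loci RNAi replicate 3 lay more than 10-fold below both other RNAi libraries, and at all 14 WT replicate 2 lay above both other WT libraries. There its CPM was between 1.48 and 2.12 times the mean of WT replicates 1 and 3. At the other 6 loci, which lay less than 10-fold below 1 or both RNAi libraries, this ratio lay between 0.621 and 1.51, and WT replicate 2 was the highest WT library at 2. Among the tested loci that are not members, 313 with counts in all WT libraries lay more than 10-fold below in RNAi replicate 3, and WT replicate 2 was the highest WT library at 78.9% of them, against 54.0% of all tested loci with such counts. Members were ranked by a WT mean that includes WT replicate 2, so a high value there helped a locus to become a member. XLOC_014000 had 524, 947 and 498 CPM in WT replicates 1 to 3, while the WT mean at rank 200 was 540 CPM. The pattern at the 14 loci can therefore follow in part from the choice, and it is not like for like with the other loci. The 14 loci took 2.18%, 2.26% and 0.131% of the counts in RNAi replicates 1 to 3. In WT replicates 1 to 3 they took 1.85%, 3.07% and 1.80%.

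Over all 197 members the deviation of RNAi replicate 3 from the other RNAi libraries correlated with that of WT replicate 2 from the other WT libraries at a Pearson r of -0.54 and a Spearman rho of -0.34. Without the 20 loci, r was -0.08 and rho -0.20 over 177 members, so the Pearson value rested on the block. Over 24697 tested loci with counts in every library, r was -0.26 and rho -0.21. These are correlations across loci of the same 6 libraries and are given as a description. RNAi replicate 3 was also the deepest library, with the highest share of deposited counts aligned to several places, at 2.69% against 2.00% to 2.23% in the others, and the lowest share overlapping several loci, at 9.72% against 10.7% to 12.8%. The part of these differences in the result was not tested.

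**Figure D4:**
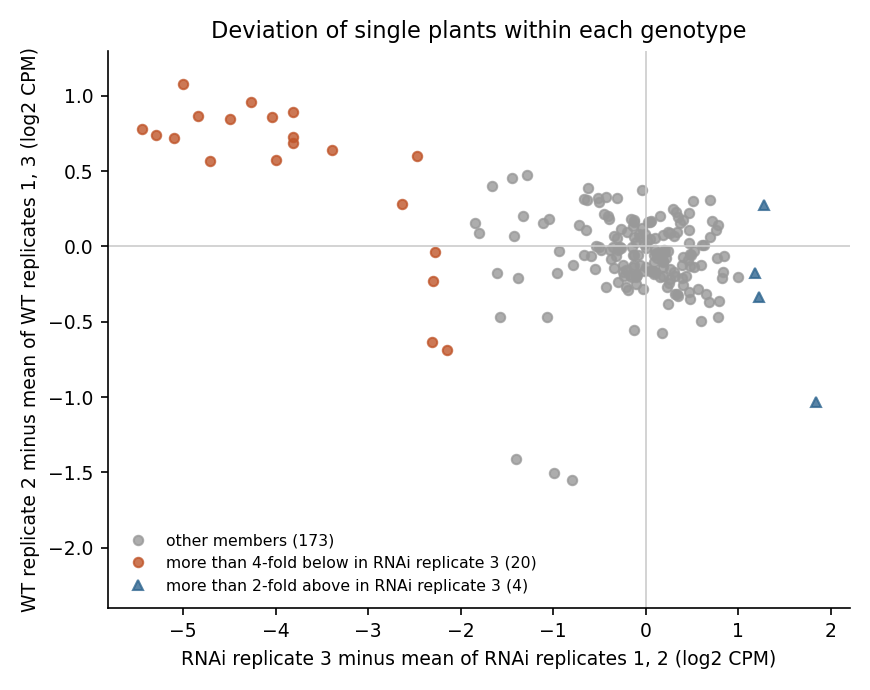
Deviation of RNAi replicate 3 from the mean of RNAi replicates 1 and 2 (x axis, log2 CPM) against that of WT replicate 2 from the mean of WT replicates 1 and 3 (y axis, log2 CPM), with 1 point per member. The 20 members that are more than 4-fold below in RNAi replicate 3 (orange) lie on the left, and at 14 of them, those more than 10-fold below, the WT replicate 2 level is between 1.48 and 2.12 times the mean of the other WT libraries, while most other members gather near 0.

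Not all variable members followed this block. XLOC_032887 and XLOC_020370, picked after their values were seen, were low in both RNAi replicate 3 and WT replicate 2. XLOC_032887 had 1392, 1555 and 556 CPM in RNAi replicates 1 to 3 and 1463, 537 and 1395 CPM in WT replicates 1 to 3. XLOC_020370 had 718, 788 and 379 CPM in RNAi libraries and 753, 283 and 858 CPM in WT libraries. XLOC_037099, the most abundant locus, was also lowest in these 2 plants, although RNAi replicate 2 was close to RNAi replicate 3.

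The members that were high in RNAi replicate 3 formed a small set. XLOC_011445 had 1156, 823 and 3498 CPM in RNAi replicates 1 to 3 and 923, 502 and 1147 CPM in WT replicates 1 to 3, and it ranked 21 in RNAi replicate 3. XLOC_021559 had 1762, 1766 and 4017 CPM in RNAi libraries and 1737, 1595 and 1874 CPM in WT libraries. XLOC_023036 and XLOC_025998 reached 1945 and 1404 CPM there, with no other library above 1223 and 795 CPM. The 4 loci together took 0.428%, 0.406% and 1.09% of the counts in the RNAi libraries and 0.450%, 0.377% and 0.472% in the WT libraries.

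Between genotypes most members lay close to the line of equal level. The rule had removed loci with a wide gap, so this follows in part from the choice. The log2 ratio of mean CPM, RNAi over WT, had a median of -0.0030 and quartiles of -0.21 and 0.19 over the members, against a median of 0.08 and quartiles of -0.14 and 0.30 over all tested loci. It was above 0 at 97 members and below 0 at 100, against 15062 and 9791 of the 24853 tested loci. Without RNAi replicate 3 the median was 0.03, with 112 members above 0 and 85 below. Over all tested loci it was then 0.01, with 13033 loci above 0 and 11820 below. With library sizes scaled by TMM (trimmed mean of M values) and all 6 libraries, 79 members were above 0. A ratio of mean CPM past 1.5-fold was found at 1 member upwards and 13 downwards, against 2430 and 1420 of the 24853 tested loci. Without RNAi replicate 3 it was found at 0 members upwards and 2 downwards, against 969 and 880 tested loci.

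In edgeR's quasi-likelihood fit over all tested loci, with Benjamini-Hochberg adjustment at 0.05, 0 members were called, where the background was 0.0523% of tested loci (13 loci, all lower in RNAi; 0% higher). DESeq2 also called 0 members. At an unadjusted edgeR p under 0.05, 4 of the 197 members were higher and 4 lower in RNAi. Of the 24853 tested loci, 647 were higher and 462 lower. These counts come from sets of very unlike size, so each is to be read as a share of its own set. The shares were small in both sets. The 3 RNAi libraries lay below the 3 WT libraries at 17 members, where the background was 3.66%, and above them at 33 members, where it was 8.45%. Without RNAi replicate 3 these counts were 30, against 7.26%, and 44, against 11.6%, and with fewer libraries separation is easier. The choice of members used this contrast, and nothing is read from these counts.

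Among members with the largest ratios, RNAi replicate 3 set the value at several. XLOC_002006, with the lowest log2 ratio of -0.88, and XLOC_001908, at -0.81, had RNAi replicates 1 and 2 in or near the WT range and replicate 3 far below. XLOC_001908 had 1429, 1813 and 290 CPM in RNAi libraries and 1938, 2664 and 1590 CPM in WT libraries. XLOC_011979, at -0.87, was lower in every RNAi library, with 334, 430 and 175 CPM in RNAi and 621, 613 and 489 CPM in WT libraries. Upwards, XLOC_011445 had a log2 ratio of 1.09 and overlapping genotypes. XLOC_012618, at 0.58, had 1017, 988 and 1716 CPM in RNAi and 866, 799 and 819 CPM in WT libraries, and each RNAi value lay above each WT value.

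**Figure D5:**
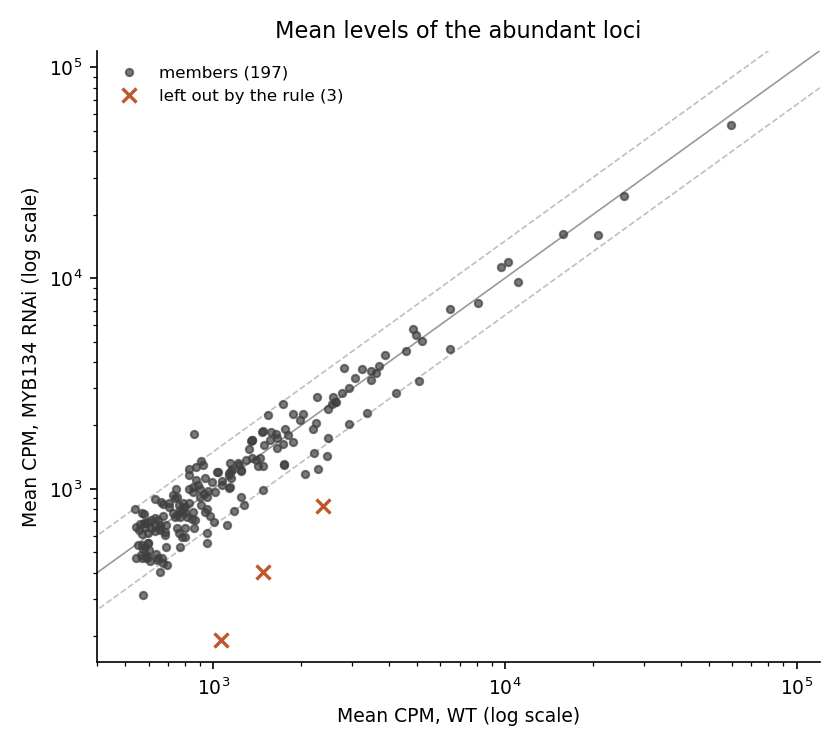
Mean CPM in RNAi leaves (y axis) against mean CPM in WT leaves (x axis), both on log scales, with 1 point per locus, a solid line at equal level and dashed lines at 1.5-fold. Most of the 197 members lie between the dashed lines, 1 lies above and 13 lie below them, and the 3 crosses are the loci left out by the rule, at mean ratios of -1.52, -1.88 and -2.46 on the log2 scale.

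The 3 loci left out were all lower in RNAi libraries, and 0 of the top 200 met the rule in the other direction. The background of the rule was 0.362% of tested loci downwards and 0.266% upwards. XLOC_004344, at WT rank 36, had 973, 1035 and 473 CPM in RNAi replicates 1 to 3 and 2784, 2467 and 1888 CPM in WT replicates 1 to 3. XLOC_016161, at rank 63, had 605, 531 and 74.2 CPM in RNAi libraries and 1754, 1509 and 1175 CPM in WT libraries. XLOC_019880, at rank 92, had 176, 147 and 253 CPM in RNAi libraries and 1437, 771 and 971 CPM in WT libraries. Together these loci took 0.142% ± 0.0539 (SD, n = 3) of the counts in RNAi and 0.492% ± 0.0982 (SD, n = 3) in WT leaves.

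No member came near the limit for leaving out. The closest below was XLOC_001385, whose lowest WT value was 1.22 times its highest RNAi value, with 1011, 1132 and 806 CPM in RNAi and 1433, 1622 and 1386 CPM in WT libraries. The closest above was XLOC_013089, whose lowest RNAi value was also 1.22 times its highest WT value, with 801, 793 and 1100 CPM in RNAi and 609, 639 and 651 CPM in WT libraries.

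At the lower edge of the ranking there was no step. The last members were XLOC_016863, XLOC_023324 and XLOC_015052, with WT means of 545, 542 and 540 CPM. The first loci outside were XLOC_011283, XLOC_022436 and XLOC_021063, with WT means of 537, 531 and 530 CPM. XLOC_015052, at rank 200, had 652, 683 and 1080 CPM in RNAi and 517, 556 and 546 CPM in WT libraries. XLOC_021063, at rank 203, had 510, 445 and 135 CPM in RNAi and 491, 623 and 477 CPM in WT libraries.

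Most members were also among the leading loci of each plant taken by itself. In their own ranking, RNAi replicates 1 to 3 held 181, 186 and 150 of the members in the first 200, and WT replicates 1 to 3 held 189, 184 and 189. All 6 libraries held 136 members (69.0%) in their first 200, and these took 86.1% of the members' reads in WT leaves. Without RNAi replicate 3, 165 members (83.8%) met this. A rank beyond 500 was found for 18 members in RNAi replicate 3 and for 0 in the other 5 libraries, where the lowest rank of a member was 428. Beside the 150 members, the first 200 of RNAi replicate 3 held 50 loci from outside the WT top 200.

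With RNAi replicate 3 and WT replicate 2 set aside, only 1 pair of plants was left within each genotype. In these pairs the order of the members was somewhat more alike than in the pairs between genotypes. The plants set aside were picked after their values were seen, and each was the plant least like the others of its genotype. The pair left in each genotype was therefore its most alike pair, which favoured this outcome in advance. The members were also chosen for lacking a wide gap between genotypes, so this is a description. The Spearman correlation of member CPM was 0.977 between RNAi replicates 1 and 2 and 0.968 between WT replicates 1 and 3. Between genotypes it was 0.940 and 0.959 for RNAi replicate 1 with WT replicates 1 and 3, and 0.950 and 0.944 for RNAi replicate 2 with WT replicates 1 and 3. The plants set aside did not share this pattern. For WT replicate 2 the correlation was 0.892 and 0.882 with WT replicates 1 and 3. With RNAi replicates 1 and 2 it was higher, at 0.899 and 0.912. RNAi replicate 3 was mixed, with 0.682 and 0.651 for RNAi replicates 1 and 2, and 0.654 and 0.691 for WT replicates 1 and 3. The lowest value was 0.528, between RNAi replicate 3 and WT replicate 2.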

How the data were processed

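Each library came as raw, unnormalized counts per locus, as deposited by the authors. Per the submitters' processing notes, the tools were R 3.4.0, DESeq, HTSeq 0.6.1, Cufflinks and HISAT2 2.1.0, with no role stated. Build, annotation and strandedness were not given in the sources used here. In total, the 5 summary rows, which held between 25.9% and 29.1% of deposited counts per library, were left out of totals and tests. Reads overlapping several loci or aligning to several places are among them, so a locus with a near-identical copy can be undercounted.

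The members and lists were chosen with earlier results of these data known. CPM was computed as count / assigned total. Genotypes were compared with edgeR 4.0.16 in R 4.3.3 (filterByExpr, TMM, robust quasi-likelihood F test, Benjamini-Hochberg at 0.05), with DESeq2 1.42.0 as an alternative. DESeq2 gave no adjusted p for 9371 loci, none of them members. Measures of each library were compared with exact permutation tests. Functions were tested on simulated data. Named loci were the 10 members highest in WT, the 5 most and 5 least variable, the extreme genotype ratios, the edges of the rule and the members of lowest rank; others were picked after their values were seen.

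A level of 3 counts corresponded to 0.0314 CPM in the deepest library and 0.125 CPM in the shallowest, for counting error only. As a check for duplicate deposits, counts of the members were compared between libraries of a genotype, and the chi-square per degree of freedom was at least 334. The design text describes separate saplings.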

Additional observations from a re-analysis of the deposited data

How the results depend on the processing

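Of 140 values recomputed under alternatives, 121 stayed within the limits set for them. These were 1 SD for a share and 1.5 times for a count or an SD. For a tested difference they were direction and side of the threshold. Such a difference could still move much in size. Part of this tally was fixed in advance. The rule itself holds the number of members close to the number of loci ranked. The permutation tests of concentration could not pass the threshold with these few libraries, so only direction could change there. The tally is therefore not read as a measure of robustness. Counted over all deposited reads, the members' share was 29.7% in RNAi and 30.2% in WT leaves, because the denominator is larger. With the most abundant locus dropped from the ranking and from the total, the 197 loci then chosen took 38.6% in WT leaves. Of these loci, 196 were members. The shares given above for the other members kept that locus in the total, so they are lower. Leaving out 1 library gave a share of 38.7% to 42.1% in RNAi and 41.2% to 43.4% in WT leaves. The difference between genotypes in the share of the 10 leading loci, -0.96 percentage points, lay between -2.69 and 0.042 without 1 library, and was above 0 without WT replicate 3. That in the effective number of loci lay between 31.9 without RNAi replicate 2 and 511 without RNAi replicate 1. The median SD of log2 CPM over the members was 0.063 without RNAi replicate 3 and up to 0.28 without another RNAi library in RNAi leaves, and 0.065 without WT replicate 2 and up to 0.13 without another WT library in WT leaves. In the fit over all loci, 13 loci were called; 24 were called with no filter and 82 with DESeq2. Leaving out 1 library gave between 0 and 52 calls: leaving out RNAi replicate 3 gave 52, WT replicate 1 gave 2, and each of the other 4 gave 0. With the replicate number as a block, 15 were called. Deviations of same-numbered libraries from their genotype means correlated at -0.14, 0.40 and 0.23, so not every library correlated best with its own number, and the numbers were not taken as pairs. No member was called in any of these fits. What caused the counts to move was not tested. The counts of members within 1.5-fold and in the first 200 of all libraries were recomputed without 1 library after seeing the data: they lay between 97 and 165 and between 136 and 165, the highest without RNAi replicate 3 in both. Also recomputed after seeing the data, the count of members with RNAi below WT in all libraries, 17, lay between 19 and 30 without 1 library, and that with RNAi above WT, 33, between 36 and 45. Over all tested loci these shares were 3.66% and 8.45% with all libraries, and 7.26% and 11.6% without RNAi replicate 3. Leaving out a library can only keep or raise any of these counts of members, so the direction of their change was fixed. Ranked by the RNAi mean, 198 loci were chosen, of which 174 were among the 197 members (88.3% of the members).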
